A study of Homo sapiens with 6 samples.

Results

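INSIG1 and a group of cholesterol synthesis enzymes were examined in BE(2)-C neuroblastoma cells exposed to an inhibitor of serine synthesis. The group was set by gene name as INSIG1, MSMO1, MVK, HMGCS1, SQLE, DHCR7 and FDFT1, each represented by the array row with the highest mean over all arrays. Of these 7 genes, 6 had a named row among the 14779 genes tested, each with 1 row, and FDFT1 was not analysed here. The treated cells received 10 µM NCT-503, a small-molecule inhibitor of PHGDH, the enzyme that opens serine synthesis, for 2 days, and the control cells received the vehicle DMSO for the same time. BE(2)-C is an established clonal human neuroblastoma line, so all 6 samples share 1 genetic background. The cells were grown in medium with serum, and the cholesterol available to them was not measured. Each group held 3 samples, which the series describes as independent; whether each came from its own culture is not in the labels, and p-values cover only the spread among them, which may be technical. Each sample was hybridised to its own Affymetrix whole-transcript array, and the number of arrays limits the precision.

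Cells make cholesterol from acetyl-CoA through mevalonate, squalene and a series of sterol rings. When membranes of the endoplasmic reticulum hold little sterol, the carrier SCAP takes the transcription factors SREBP1 and SREBP2 (genes SREBF1 and SREBF2) to the Golgi, where they are cut, and the freed parts switch on the enzymes of the pathway. INSIG1 and INSIG2 are membrane proteins that hold SCAP back when sterol is plentiful, and INSIG1 is itself a target of the SREBPs.

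The promoters of these genes are shown because the SREBPs, which regulate these genes, act together with the CCAAT-binding factor NF-Y and the GC-box factor SP1. The windows run from 250 bases before to 50 bases after the annotated start in RefSeq on GRCh38.p14, which held 5 of the 6 measured genes. The positions are chr7:155297628-155297927 on the plus strand for INSIG1, chr4:165327419-165327718 on the plus strand for MSMO1, chr12:109573544-109573843 on the plus strand for MVK, chr5:43313363-43313662 on the minus strand for HMGCS1 and chr11:71448344-71448643 on the minus strand for DHCR7. Capitals mark the letters CCAAT or their reverse complement ATTGG.
INSIG1: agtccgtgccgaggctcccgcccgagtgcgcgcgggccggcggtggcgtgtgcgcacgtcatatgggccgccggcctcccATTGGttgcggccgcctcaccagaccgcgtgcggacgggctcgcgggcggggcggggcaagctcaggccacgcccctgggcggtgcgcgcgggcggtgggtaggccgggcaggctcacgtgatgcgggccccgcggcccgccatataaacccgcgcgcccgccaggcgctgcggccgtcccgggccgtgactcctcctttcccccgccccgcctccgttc
MSMO1: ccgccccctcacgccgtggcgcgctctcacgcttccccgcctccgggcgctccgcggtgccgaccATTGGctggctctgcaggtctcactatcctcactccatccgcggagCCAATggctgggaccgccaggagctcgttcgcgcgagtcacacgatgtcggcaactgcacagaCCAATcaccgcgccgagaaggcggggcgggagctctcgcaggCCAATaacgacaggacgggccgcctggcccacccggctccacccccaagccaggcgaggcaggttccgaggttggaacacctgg
MVK: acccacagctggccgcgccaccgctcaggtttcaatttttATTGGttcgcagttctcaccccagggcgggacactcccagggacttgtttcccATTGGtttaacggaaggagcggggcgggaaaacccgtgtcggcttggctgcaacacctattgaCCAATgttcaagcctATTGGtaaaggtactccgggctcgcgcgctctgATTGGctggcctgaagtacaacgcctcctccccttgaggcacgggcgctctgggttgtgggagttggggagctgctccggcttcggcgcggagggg
HMGCS1: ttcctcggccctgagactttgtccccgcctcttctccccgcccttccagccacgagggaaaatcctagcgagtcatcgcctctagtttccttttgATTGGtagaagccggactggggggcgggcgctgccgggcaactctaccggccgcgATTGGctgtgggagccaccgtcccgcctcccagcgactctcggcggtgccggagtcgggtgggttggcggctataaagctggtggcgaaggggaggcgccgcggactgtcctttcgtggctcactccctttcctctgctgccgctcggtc
DHCR7: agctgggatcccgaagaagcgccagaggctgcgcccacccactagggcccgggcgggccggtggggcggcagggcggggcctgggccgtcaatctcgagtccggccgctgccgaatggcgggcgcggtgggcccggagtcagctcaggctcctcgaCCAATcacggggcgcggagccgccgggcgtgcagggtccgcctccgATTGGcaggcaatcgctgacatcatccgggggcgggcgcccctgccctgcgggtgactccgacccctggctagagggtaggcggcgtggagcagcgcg
The CCAAT letters occurred 1 time in the INSIG1 window, 4 times in MSMO1, 5 times in MVK, 2 times in HMGCS1 and 2 times in DHCR7. Among 27305 promoter windows of this length, 35.7% held at least 1 match on either strand, 11.3% at least 2, 1.06% at least 4 and 0.403% at least 5. The GC box GGGCGG, found in 44.6% of windows on either strand, occurred 6 times in INSIG1, 4 times in DHCR7 and 2 times in each of the other three. No CCAAT match overlapped a GC box, and 1 pair of GC boxes overlapped in INSIG1. DHCR7 did not pass the test below. Whether the CCAAT and GC letters go with the changes was not tested. A sterol regulatory element written as TCACNCCAC (1.15% of windows) and a C/EBP-ATF element written as TGATGNAA (3.67% of windows) were searched on both strands, and these letters were in none of the 5 windows. Such matches describe the sequence and do not show binding. Elements with other letters or outside these windows were not searched, so no match does not mean no element.

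The arrays were checked once against the labels. Over all 31135 rows, the medians of the NCT-503 arrays were 4.32 to 4.33 and those of the DMSO arrays 4.30 to 4.31 (log2 signal as deposited). The 75th percentiles were 6.03 to 6.08 on the NCT-503 arrays and 6.16 to 6.19 on the DMSO arrays, so the groups differed in the upper part of the scale. Any 2 arrays of the same group correlated at 0.990 or more over these rows, and arrays of different groups at 0.971 or 0.972 (Pearson's r across rows, which are not independent). Of 12 noradrenergic and neuroblastoma markers 9 were measured, with group means from 5.88 to 10.4 with NCT-503 and from 6.05 to 10.2 with DMSO. The highest group mean with NCT-503 was that of DBH, which makes noradrenaline, and the lowest in both groups that of TH, which makes its precursor (5.82 to 5.97 on NCT-503 arrays and 5.89 to 6.19 on DMSO arrays). Of these 9 markers 3 rose, by 0.37 to 0.75, and 4 fell (limma, adjusted p under 0.05), where 16.4% of all genes were called higher and 17.1% lower. Of the markers, the granule proteins CHGA (-1.23) and CHGB (-1.13) changed most. The other listed markers of this kind were not analysed here. Of 12 markers of blood, fibroblast, epithelial, endothelial, liver and Schwann cells 7 were measured, with group means from 3.22 to 6.98 with NCT-503 and from 3.14 to 7.22 with DMSO, the highest being the fibroblast proteoglycan LUM in both groups. The 7 were CD14, LUM, EPCAM, KRT8, KRT18, ALB and SOX10, with no endothelial marker among them. The part of these cell types in the results below was not tested, and array signals of different genes are not comparable as levels. No batch or scan date is given in the labels.

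With NCT-503, 5 of the 6 measured sterol genes rose and DHCR7 did not pass the test. INSIG1 rose 3.05-fold and MSMO1 2.25-fold, whereas MVK, HMGCS1 and SQLE rose 1.57-fold, 1.36-fold and 1.22-fold. The 5 that rose had all NCT-503 arrays above all DMSO arrays. Over all genes tested, 16.4% were called higher and 17.1% lower by limma at an adjusted p under 0.05, 25.4% had all NCT-503 arrays above all DMSO arrays and 22.4% all below, so a change in either direction is common in these data. The median log2 change was 0.55 over the 6 genes and 0.06 over all genes. The genes were listed with earlier results of these arrays known, so their count is a description. In bulk RNA, fewer cells of a type and less RNA per cell cannot be told apart.

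**Figure D1:**
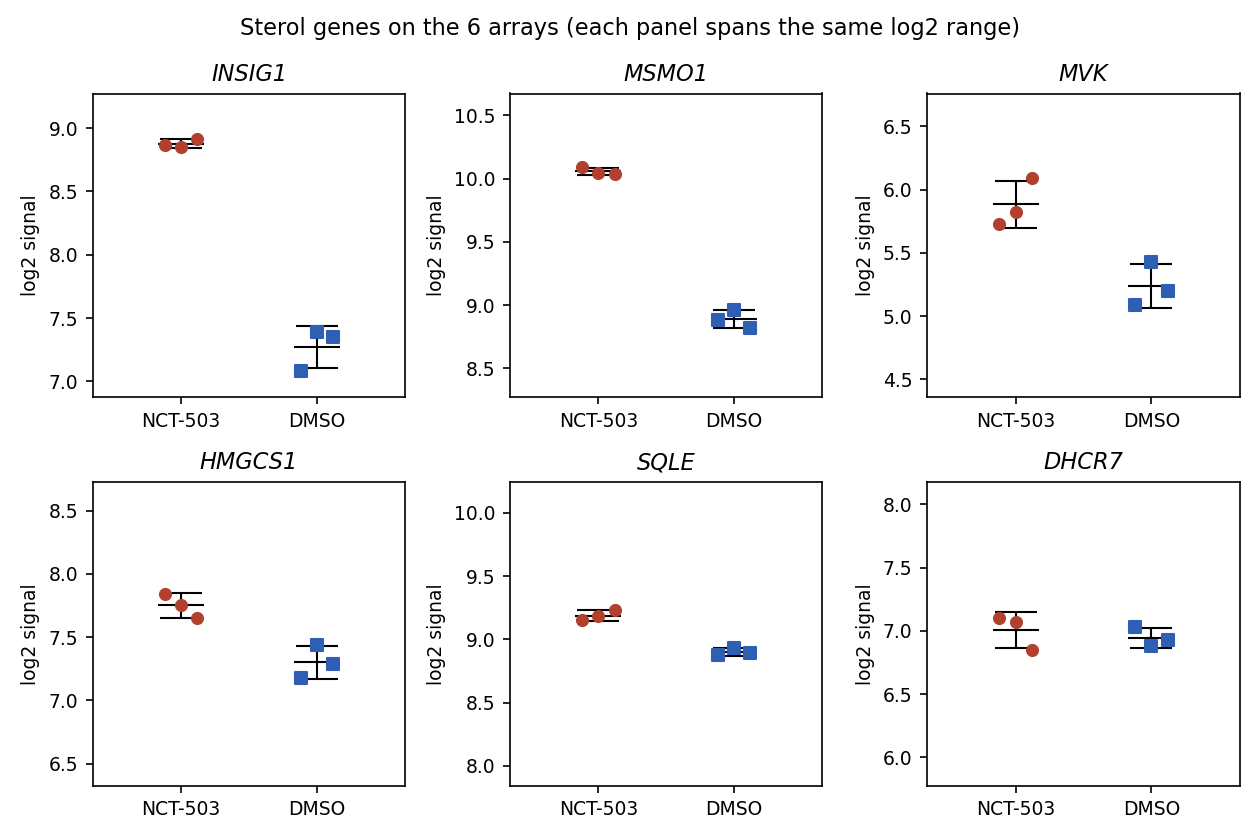
Log2 signal of the 6 measured sterol genes on each array, 1 panel per gene, with NCT-503 arrays as red circles and DMSO arrays as blue squares (a, b and c from left to right). The long line is the mean, the capped bars are the SD (n = 3), and every panel spans the same log2 range, so the gap between groups can be compared: the means differ by 1.61 for INSIG1 and by 0.06 for DHCR7, whose groups overlap.

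INSIG1, the sterol-sensing brake, had log2 signals of 8.87, 8.85 and 8.92 in NCT-503 samples a, b and c, against 7.08, 7.39 and 7.35 in DMSO samples a, b and c. The treated arrays lay within 0.1 of each other, and the widest spread was in the controls, where DMSO a was lowest. Group means were 8.88 ± 0.03 with NCT-503 and 7.27 ± 0.17 with DMSO (SD, n = 3 each). The change was 1.61 ± 0.10 on the log2 scale (SE, limma adjusted p = 7.15e-05), with a 95% interval of the fold from 2.59 to 3.58. It ranked 31 among the rises of 14779 genes.

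Its relative INSIG2, which has the same role in holding SCAP, did not pass. INSIG2 had 6.03, 5.53 and 5.86 with NCT-503, against 5.95, 6.06 and 6.12 with DMSO, and the groups overlapped through NCT-503 a. Its change was -0.24 ± 0.13 (limma adjusted p = 0.222), with a 95% interval from -0.55 to 0.08. Leaving out 1 array, it lay between -0.35 (without NCT-503 a) and -0.096 (without NCT-503 b). The full interval lay wholly below the one of INSIG1, 1.37 to 1.84, but the difference between both genes was not tested by itself.

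Of the genes for the SREBPs themselves, SREBF1 fell and SREBF2 did not pass. SREBF1, which drives fatty acid synthesis and, to a lesser extent, sterol synthesis, had 5.13, 5.25 and 4.95 with NCT-503, against 5.61, 5.52 and 5.74 with DMSO, with every treated array below every control array. It fell by 0.51 ± 0.10 on the log2 scale (SE, limma adjusted p = 0.00841). SREBF2, the main factor of the cholesterol enzymes, had 8.45, 8.33 and 8.25 with NCT-503, against 8.39, 8.36 and 8.30 with DMSO, and the groups overlapped. Its change was -0.01 (95% interval from -0.20 to 0.18, adjusted p = 0.955) and that of the carrier SCAP was 0.02 (95% interval from -0.21 to 0.24, adjusted p = 0.906), and both turned sign in some alternatives. Of the 7 genes of sterol sensing and SREBP processing 5 were measured, of which INSIG1 rose and SREBF1 fell. Among all genes, 16.4% were called higher and 17.1% lower, and 22.4% had all NCT-503 arrays below all DMSO arrays. The SREBPs are activated by cleavage, which arrays do not measure.

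The mevalonate steps were uneven. HMGCS1, which condenses acetyl-CoA and acetoacetyl-CoA to HMG-CoA, had 7.84, 7.76 and 7.65 with NCT-503, against 7.18, 7.44 and 7.29 with DMSO. The groups did not overlap, and the arrays closest to each other were NCT-503 c and DMSO b. Means were 7.75 ± 0.10 with NCT-503 and 7.30 ± 0.13 with DMSO (SD, n = 3 each), a change of 0.45 ± 0.10 (SE, limma adjusted p = 0.0110).

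MVK, mevalonate kinase, had 5.73, 5.83 and 6.09 with NCT-503, against 5.09, 5.43 and 5.20 with DMSO. Among the genes that rose it had the widest spread between treated arrays, with NCT-503 c highest, and the groups did not overlap. Its means were 5.88 ± 0.19 with NCT-503 and 5.24 ± 0.17 with DMSO (SD, n = 3 each), and its change was 0.65 ± 0.13 (SE, limma adjusted p = 0.00755), with a 95% interval of the fold from 1.27 to 1.93. Its rank among all rises was 581.

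MVD, which decarboxylates mevalonate diphosphate, had 6.07, 6.02 and 5.84 with NCT-503, against 5.56, 5.76 and 5.66 with DMSO, without overlap. It rose by 0.32 ± 0.09 (SE, limma adjusted p = 0.0366), and it missed the threshold when either of DMSO a and DMSO c or either of NCT-503 a and NCT-503 b was left out (adjusted p of 0.0913 to 0.114). PMVK, the kinase between MVK and MVD, had a change of -0.02 (95% interval from -0.22 to 0.17), which turned sign when arrays were rescaled, and ACAT2, which makes acetoacetyl-CoA, had 0.02. The isoprenoid steps that follow, IDI1 (isomerase of isopentenyl diphosphate) and FDPS (farnesyl diphosphate synthase), had changes of -0.21 and -0.16 and did not pass (adjusted p = 0.145 and 0.214). IDI1 was -0.12 without NCT-503 a, and FDPS was -0.10 without DMSO b. All IDI1 arrays with NCT-503 (6.07, 6.30 and 6.37) lay below all those with DMSO (6.45, 6.51 and 6.40). Such an order held for 22.4% of all genes. The reference table lists 3 pseudogenes named after IDI1 and 10 named after FDPS, and probes may not separate such copies.

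The squalene and sterol-ring steps were led by MSMO1. MSMO1, the oxidase that acts on the methyl groups at carbon 4 of the sterol ring, had 10.09, 10.04 and 10.04 with NCT-503, against 8.88, 8.96 and 8.82 with DMSO. The treated arrays were nearly equal and all lay more than 1 above the controls. Means were 10.06 ± 0.03 with NCT-503 and 8.89 ± 0.07 with DMSO (SD, n = 3 each), a change of 1.17 ± 0.07 (SE, limma adjusted p = 7.79e-05) with a 95% interval of the fold from 1.99 to 2.54. It ranked 96 among all rises.

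SQLE, squalene epoxidase, makes the first oxygenated sterol precursor and is a control point of the pathway. It had 9.15, 9.19 and 9.23 with NCT-503, against 8.88, 8.93 and 8.89 with DMSO, a small gap with little spread on either side. Means were 9.19 ± 0.04 with NCT-503 and 8.90 ± 0.03 with DMSO (SD, n = 3 each), a change of 0.29 ± 0.07 (SE, limma adjusted p = 0.0174). It missed the threshold when DMSO a (adjusted p = 0.0599), DMSO c (0.0579) or NCT-503 b (0.0512) was left out. Its rank among all rises was 3149, so many genes had a larger positive change.

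DHCR7, the reductase that gives cholesterol at the end of the pathway, had 7.10, 7.07 and 6.85 with NCT-503, against 7.03, 6.88 and 6.93 with DMSO. The groups overlapped, with NCT-503 c below every control. The change was 0.06 ± 0.10 (SE, limma adjusted p = 0.660), with a 95% interval from -0.17 to 0.29. Leaving out 1 array, it lay between 0.014 (without NCT-503 a) and 0.14 (without NCT-503 c). Between squalene and cholesterol, TM7SF2, NSDHL, HSD17B7 and EBP, had changes of 0.15, 0.13, 0.23 and 0.09 and did not pass (adjusted p from 0.129 to 0.520). Without NCT-503 a, TM7SF2 was 0.028, NSDHL 0.054 and EBP 0.0068. NSDHL was 0.048 without DMSO c, and TM7SF2 was 0.24 without NCT-503 c. TM7SF2 reduces the sterol ring after its first demethylation, NSDHL and HSD17B7 complete the removal of the methyl groups that MSMO1 oxidises, and EBP shifts a double bond. HSD17B7 has 2 pseudogenes named after it in the reference table. The other listed enzymes of these steps were not analysed here.

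Over the whole enzyme list, 5 of 14 measured members rose (HMGCS1, MVK, MVD, SQLE and MSMO1), and the other 9 did not pass, with changes from -0.21 to 0.23, where 16.4% of all genes were called higher. The list's median change was 0.14, against 0.06 over all genes. The 5 that rose included steps before and after squalene, with members that did not pass between them.

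**Figure D2:**
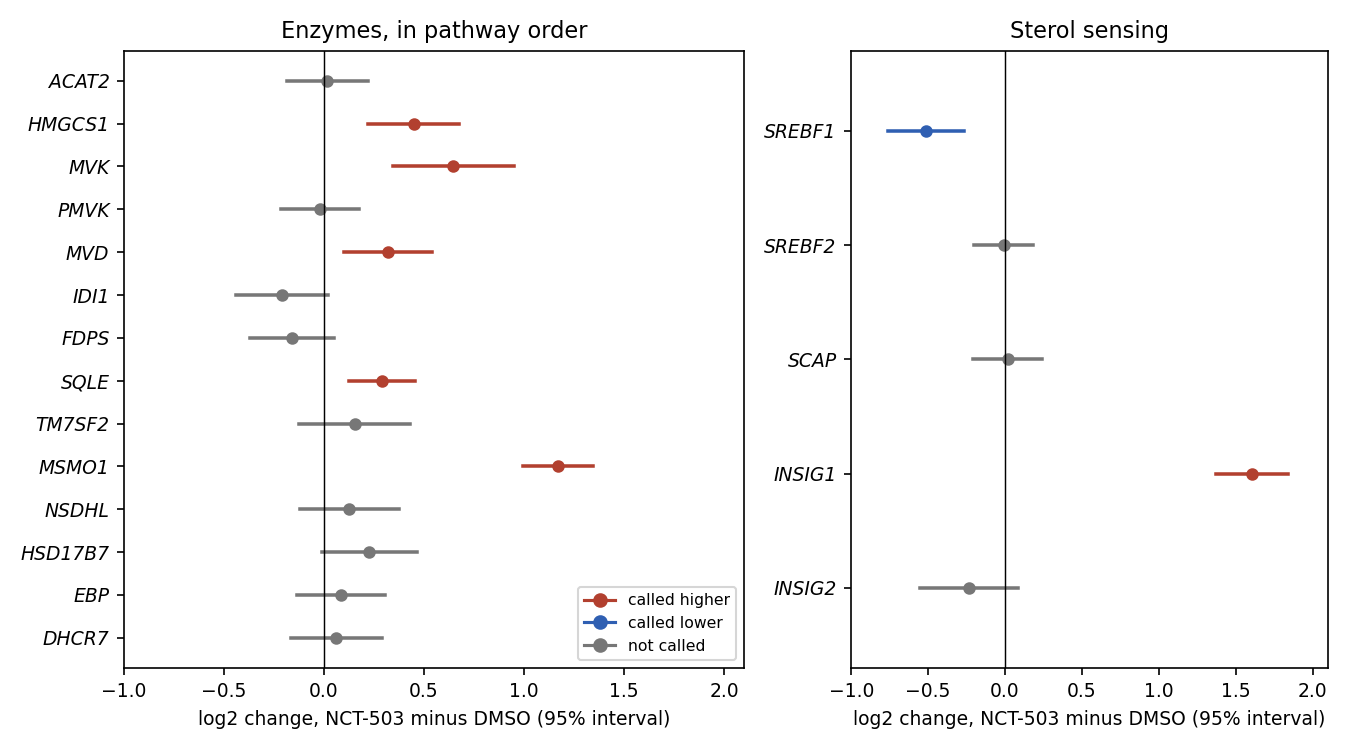
Log2 change with NCT-503 minus DMSO (point) and its 95% interval from limma (line) for 14 enzymes in pathway order from top to bottom and for 5 genes of sterol sensing. Red marks genes called higher, blue called lower and grey not called; MSMO1 at 1.17 and INSIG1 at 1.61 stand to the right of the rest, and SREBF1 at -0.51 is the one gene shown that was called lower.

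**Figure D3:**
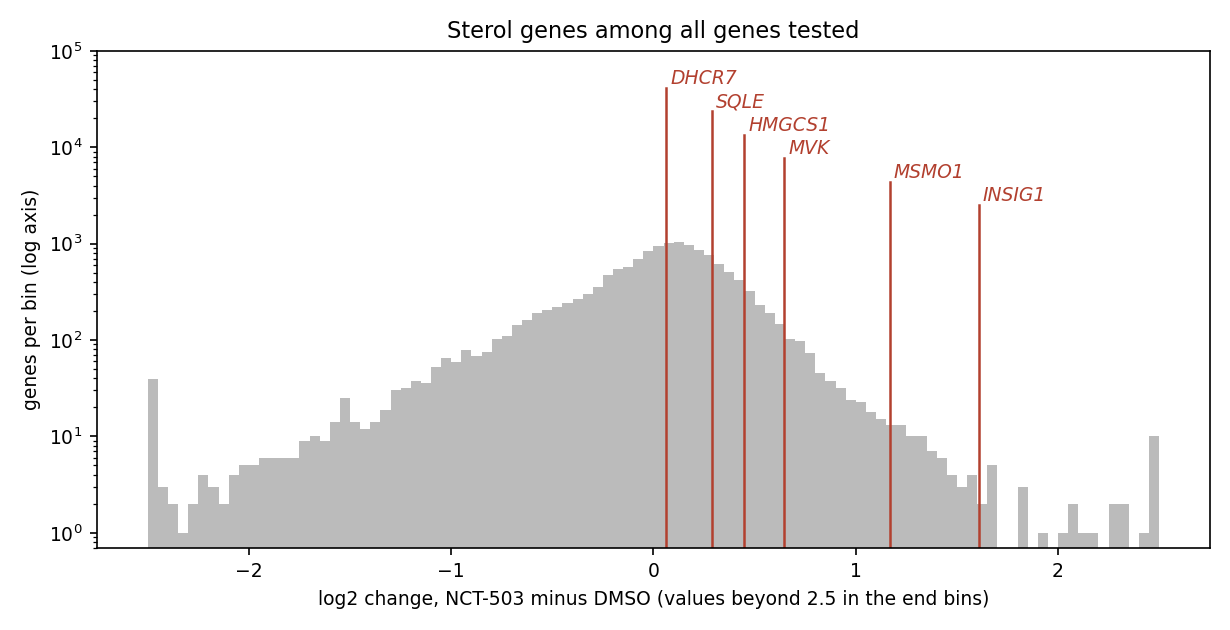
Histogram of the log2 changes of all 14779 genes (grey, log axis of genes per bin of width 0.05) with the 6 sterol genes as red lines, whose height carries no value. INSIG1 and MSMO1 lie in the far right tail at ranks 31 and 96, and DHCR7 lies at the centre.

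The genomic neighbours were compared to see whether the rise extended along the chromosome. They were chosen by position, as the nearest protein-coding gene on either side in RefSeq, after the values of the sterol genes were seen. Of 12 neighbours 9 were measured, with 2 called higher and 2 lower, where 16.4% of all genes were called higher and 17.1% lower. EN2 next to INSIG1 (0.36) and NIM1K next to HMGCS1 (0.39) were called higher. Their group means (3.99 and 4.11 with NCT-503, 3.63 and 3.72 with DMSO) lay below the median of every array. Both neighbours of SQLE, ZNF572 (-1.23) and WASHC5 (-0.32), were called lower. The EN2 call was lost without any 1 of DMSO a, b and c or NCT-503 a and b (limma adjusted p from 0.0563 to 0.118), and the NIM1K call without either of DMSO b and c or either of NCT-503 b and c (0.0554 to 0.0740). MVK and MMAB, a cobalamin enzyme read in the opposite direction, have gene spans that overlap at their starts, and the CCAAT-rich window printed for MVK overlaps the promoter window of MMAB in the same table. MMAB had 6.56, 6.58 and 6.55 with NCT-503, against 6.85, 7.15 and 6.62 with DMSO, all treated arrays below all controls. Such an order held for 22.4% of all genes. The change of MMAB was -0.31 ± 0.13 (SE, limma adjusted p = 0.111), opposite in sign to the 0.65 of MVK. It was called lower in 3 of 18 alternatives, without DMSO c among them (-0.44), and without DMSO b its change was -0.17 (adjusted p = 0.249). The difference between MVK and MMAB was not tested.

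Regulated degradation of pathway enzymes such as SQLE is the other arm of control by sterols. Of 7 listed genes 3 were measured and 2 fell, where 17.1% of all genes were called lower. RNF145, a ubiquitin ligase of the endoplasmic reticulum that works with the INSIG proteins, had 7.58, 7.63 and 7.52 with NCT-503, against 8.15, 8.11 and 8.07 with DMSO, and fell by 0.53 ± 0.07 (SE, limma adjusted p = 0.00154). VCP, the segregase that pulls ubiquitinated proteins from membranes in many pathways, had 9.31, 9.21 and 8.98 with NCT-503, against 9.81, 9.73 and 9.69 with DMSO, and fell by 0.58 ± 0.10 (adjusted p = 0.00439). In both, the groups did not overlap, where 22.4% of all genes had all NCT-503 arrays below all DMSO arrays. RNF139, another ligase of this kind, had a change of 0.14 (adjusted p = 0.242).

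In the list of sterol esterification, oxidation and transfer, 3 of 8 measured genes rose and 1 fell. Over all genes, 16.4% were called higher and 17.1% lower. OSBP, which exchanges cholesterol for a phosphoinositide between the endoplasmic reticulum and the Golgi, had 8.22, 8.16 and 8.06 with NCT-503, against 7.44, 7.48 and 7.48 with DMSO. It rose 1.61-fold (0.68 ± 0.08, SE, limma adjusted p = 0.000623). GRAMD1A, which carries cholesterol from the plasma membrane to the endoplasmic reticulum, had 8.64, 8.62 and 8.41 with NCT-503, against 7.92, 8.00 and 7.71 with DMSO, and rose 1.60-fold (adjusted p = 0.00291). In OSBP and GRAMD1A every treated array was above every control, which held for 25.4% of all genes. STARD3, of late endosomes, rose by 0.33 (adjusted p = 0.0199), a call lost when DMSO c or either of NCT-503 a and b was left out (0.0574 to 0.0709), and OSBPL2 fell by 0.25 (adjusted p = 0.0446), a call lost without any 1 array (0.0526 to 0.138). SOAT1, CH25H, GRAMD1B and GRAMD1C, did not pass.

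Of 9 genes of uptake and lysosomal export 2 were measured. STARD4, a sterol carrier that the SREBPs induce, had 10.84, 10.92 and 11.08 with NCT-503, against 10.52, 10.47 and 10.58 with DMSO, and rose by 0.43 ± 0.09 (SE, limma adjusted p = 0.00938), without overlap. That call was lost with quantile normalization (adjusted p = 0.0710). Of all genes tested, 16.4% were called higher and 25.4% had all NCT-503 arrays above all DMSO arrays. MYLIP, a ubiquitin ligase that limits lipoprotein uptake, had a change of -0.06 (adjusted p = 0.661).

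The oxysterol receptors LXR induce genes of sterol efflux and lipid remodelling, and 2 of 8 listed genes were measured. APOE, the lipoprotein component, had 4.83, 4.70 and 4.52 with NCT-503, against 3.62, 3.96 and 4.11 with DMSO, and rose by 0.78 ± 0.14 (SE, limma adjusted p = 0.00526). LPCAT3, which puts polyunsaturated chains into phospholipids, had 8.07, 8.13 and 7.93 with NCT-503, against 8.85, 8.83 and 8.86 with DMSO, and fell by 0.80 ± 0.08 (adjusted p = 0.000402). The groups did not overlap in either gene. The DMSO mean of APOE, 3.90, lay below the median of every array. Of all genes tested, 16.4% were called higher and 17.1% lower, 25.4% had all NCT-503 arrays above all DMSO arrays and 22.4% all below. A change in either direction is thus common, and 2 genes do not describe the list.

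Both measured genes of the isoprenoid branch fell, out of 11 listed, where 17.1% of all genes were called lower. NUS1 and DHDDS form the enzyme that makes the dolichol chain for protein glycosylation from farnesyl diphosphate. NUS1 had 9.38, 9.20 and 9.38 with NCT-503, against 9.65, 9.75 and 9.64 with DMSO (change -0.36, limma adjusted p = 0.0148, and 0.0507 without DMSO b). DHDDS had a change of -0.25 (adjusted p = 0.0374), lost without any 1 array (0.0660 to 0.112) and under each of 3 rescalings of the arrays (0.0612 to 0.0954).

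Of 11 measured genes on the list of SREBP-driven fatty acid genes, 5 fell (ACACA, ELOVL6, ACACB, FASN and FADS2) and ACSS2 rose. Over all genes, 17.1% were called lower and 16.4% higher. The list also holds TMEM97, which is not a fatty acid enzyme and did not pass. The list's median change was -0.26. ACACA, the carboxylase that commits acetyl-CoA to fatty acids, had 8.09, 8.03 and 7.96 with NCT-503, against 8.87, 8.88 and 8.85 with DMSO, and fell by 0.84 ± 0.07 (SE, limma adjusted p = 0.000230). FASN, fatty acid synthase, had 7.71, 7.74 and 7.60 with NCT-503, against 8.34, 8.18 and 8.10 with DMSO, a change of -0.52 (limma adjusted p = 0.00440). ACSS2, which makes acetyl-CoA from acetate, had 6.12, 5.89 and 5.79 with NCT-503, against 5.47, 5.28 and 5.31 with DMSO, and rose by 0.58 ± 0.11 (SE, adjusted p = 0.00549). The groups did not overlap in ACACA, FASN and ACSS2. All NCT-503 arrays lay below all DMSO arrays in 8 of the 11 measured genes and above in 2, against 22.4% and 25.4% of all genes.

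**Figure D4:**
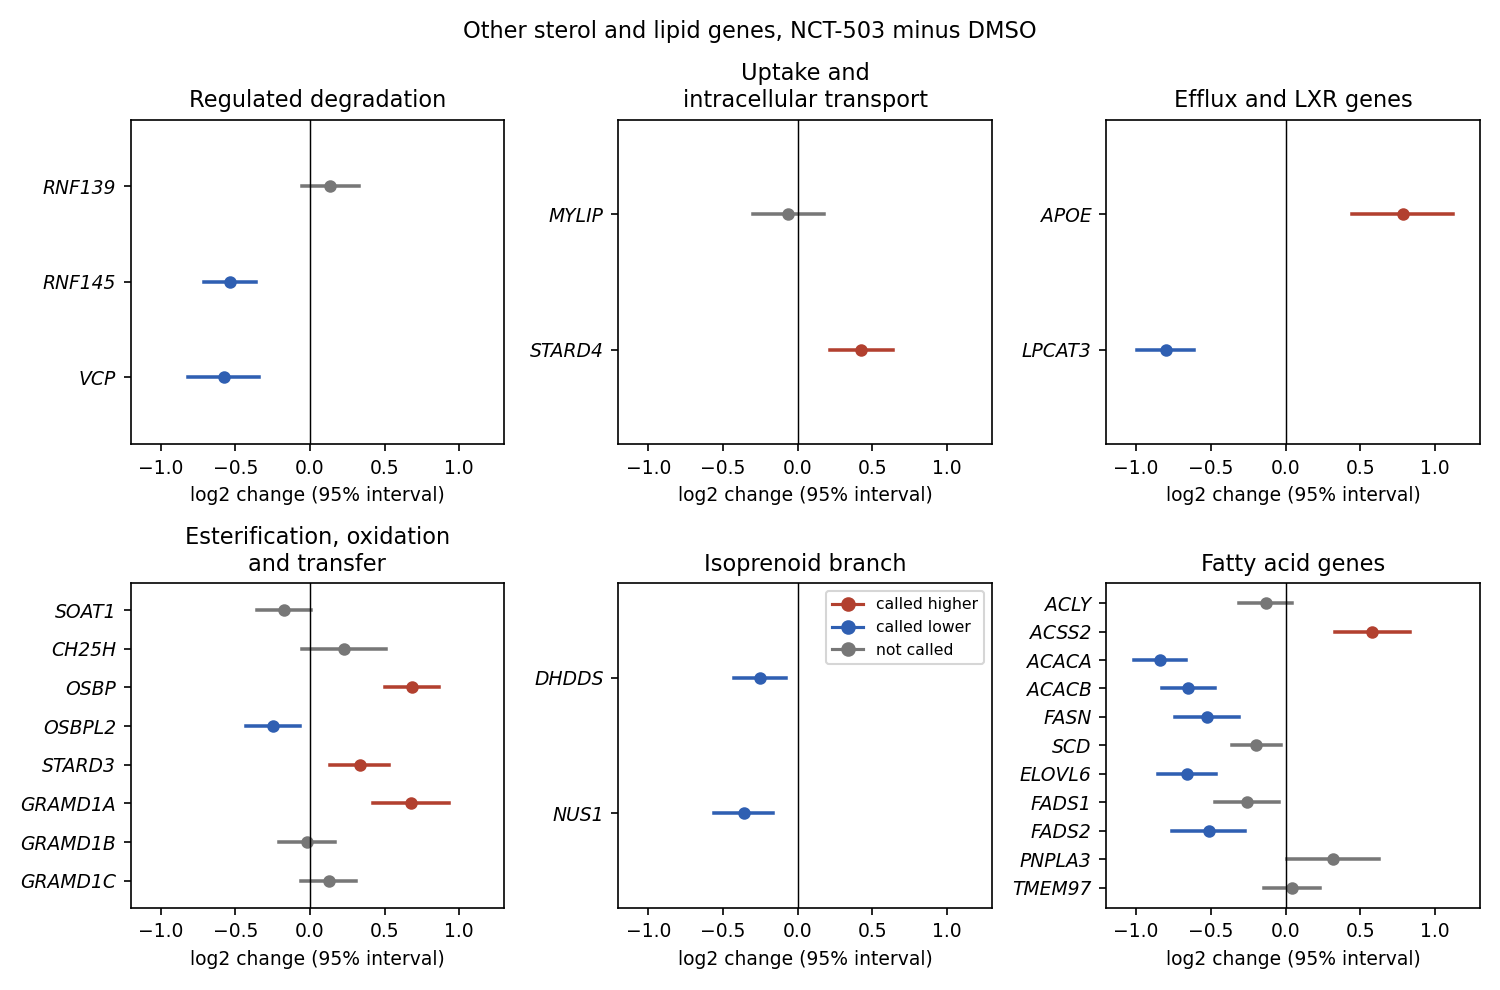
Log2 change with NCT-503 minus DMSO (point) and its 95% interval from limma (line) for the measured genes of 6 further lists. Red marks genes called higher, blue called lower and grey not called; OSBP, GRAMD1A, STARD3, STARD4, APOE and ACSS2 are higher, and LPCAT3, RNF145, VCP, both isoprenoid genes and 5 fatty acid genes are among the lower.

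The genes whose profile was most like that of INSIG1 over the 6 arrays were MITF, LONRF2, RNF187, PRPH and SPRY4. Likeness was the root mean square distance between log2 values after the DMSO mean of each gene was subtracted, and it was 0.105 for MITF and LONRF2, 0.133 for RNF187, 0.137 for PRPH and 0.149 for SPRY4. Their changes lay between 1.59 and 1.69, next to the 1.61 of INSIG1, which follows from how they were picked, as the distance grows with any difference in change. The distance of MSMO1, the nearest other sterol gene, was 0.327, and that of MVK was 0.688.

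**Figure D5:**
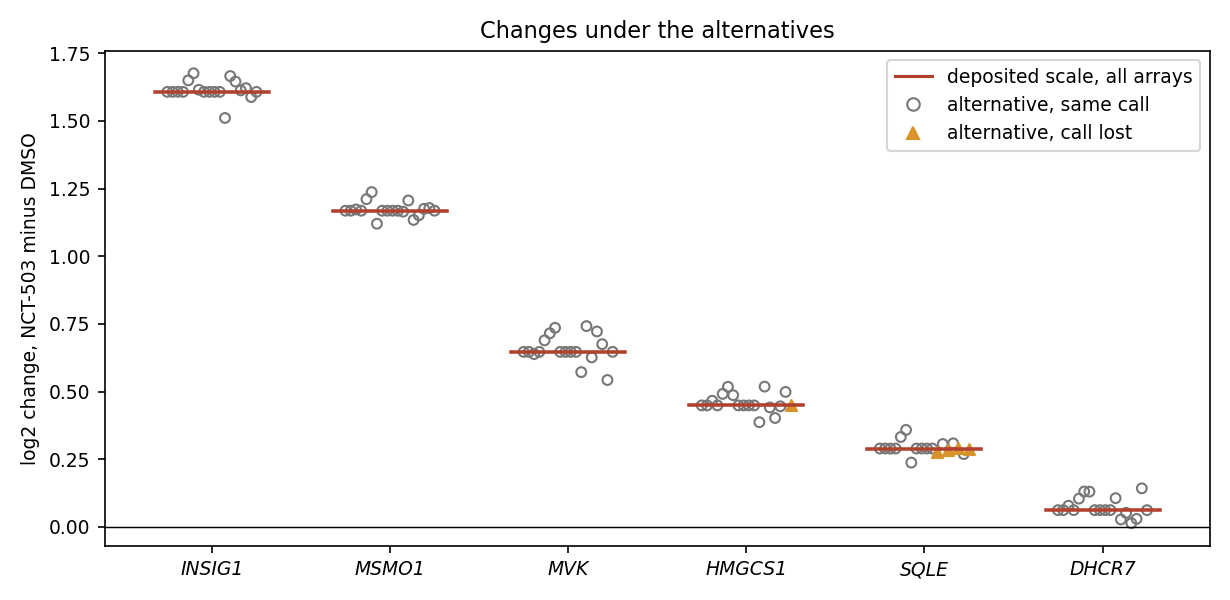
Log2 change with NCT-503 minus DMSO of the 6 sterol genes under 18 alternatives each, drawn side by side within a gene. The red line is the value on the deposited scale with all arrays, open circles kept the call and orange triangles lost it; the order from INSIG1 (1.51 to 1.68) through MSMO1 (1.12 to 1.24) to DHCR7 (0.01 to 0.14) is seen throughout, and lost calls occur for HMGCS1 and SQLE.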

How the data were processed

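The authors' deposited table holds 1 value per array row and sample, taken here as log2 signal because values ran from 0.578 to 13.6 with no missing cell. The authors used Partek, per the submitters' processing notes; the sources used here state neither its version nor the background correction or normalization. Of 31135 rows, 15098 had a gene identifier in the annotation used here that matched a RefSeq gene, whose symbol was taken. The other 16037 rows got no symbol here, which does not mean that the platform leaves them without a gene. The row with the highest mean was kept per gene (256 genes had several). limma 3.58.1 in R 4.3.3 was run on all 14779 genes in a single model (NCT-503 against DMSO, eBayes without trend, two-sided), with Benjamini-Hochberg adjustment over all of them and calls at 0.05. Errors are SE from limma for changes and SD over 3 arrays for levels. Without scanner values no gene was set against background, so changes of dim genes may be understated.

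Sterol genes and lists were chosen with earlier results of these data known. Named were the 6 measured sterol genes, all measured members of the enzyme and sensing lists, up to 4 called genes of each other list, and the 5 genes most like INSIG1. FASN, FADS2, RNF139, MYLIP, LUM, TH, DBH, the list members given without values and the neighbours were added after their values were seen. The model was checked on simulated data. Alternatives were 3 variance or weighting settings, a replicate block, 3 scalings, 2 filters, 2 choices of rows, a threshold of 0.01 and leaving out each array.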

Additional observations from a re-analysis of the deposited data

How the results depend on the processing

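INSIG1, MSMO1 and MVK kept direction and call in all 18 alternatives (log2 changes of 1.51 to 1.68, 1.12 to 1.24 and 0.54 to 0.74), and DHCR7 passed in none (0.01 to 0.14). HMGCS1 (0.45) and SQLE (0.29) missed a threshold of 0.01, at which 3 of the listed sterol genes and 2 of the enzymes were called higher, and 1226 genes were higher and 1682 lower in all. Leaving out 1 array, SQLE ranged from 0.27 to 0.31, and 3 to 5 enzymes were called higher: 3 each when DMSO a, DMSO c or NCT-503 b was the one left out, as SQLE and MVD then missed the threshold. With every row tested, 4100 rows were lower. The share of calls that were higher was 48.8% as deposited and 60.4% (3345 higher, 2189 lower) with arrays centred on the 75th percentile. Near-zero changes turned sign: PMVK was 0.021, 0.047 and 0.076 with median centring, 75th percentile centring and quantile normalization, and SREBF2 was 0.035 and 0.061 with the first 2. Leaving out 1 array, ACAT2 ranged from -0.034 to 0.078, PMVK from -0.067 to 0.025, SCAP from -0.044 to 0.089 and SREBF2 from -0.060 to 0.039, none of them called. Over the other named genes run under the alternatives, 539 of 591 such values kept direction and call, 39 lost the call and 13 turned sign. That count leaves out the neighbours, and the cell markers, FASN, FADS2, RNF139, MYLIP and list members given without values were not run. Of the neighbours, EN2 lost its call in 10 of 17 alternatives, NIM1K in 7 of 17 and WASHC5 in 1 of 18, and ZNF572 kept its call in all 17. The cause of these shifts was not tested. Same-lettered samples did not deviate together (r of deviations from group means across genes of 0.00361, 0.00263 and 0.0375 for a, b and c), so the letters are not taken as pairs. With the letter as a replicate block, 2108 genes were higher and 2327 lower, 5 sterol genes stayed called, and MVD was not (adjusted p = 0.0638). The median SE of 0.105 limits what 3 arrays a group can show.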
